A study of Ailuropoda melanoleuca with 25 samples.

Results

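The genes described are 46 members of the muscle contraction gene families of the giant panda. They were chosen by name from the genes that the study lists as differing between tissues, taking myosins, myosin light chains, troponins, tropomyosins, actins, and the families of Z-disc, ankyrin repeat, tripartite motif, and SMYD proteins. Of 1778 listed genes with a name, 50 matched these families, and MYL2, TNNC1, ACTA1, and ACTN2 were left out by the rule, so that 46 of the 25376 genes in the table remained. The study lists 37 of them for the heart, 2 for the heart and the kidney (MYL3 and TNNT1), 2 for the spleen (MYH14 and PDLIM3), 2 for the liver (MYH11 and TRIM9), 2 for the kidney (ANKRD53 and TRIM50), and 1 for the lung (ANKRD66). The choice rested on differences between tissues, so the level of a member in its listed tissue is given as a description with no test.

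The sarcomere is the contractile unit of striated muscle, in which thick filaments of myosin pull on thin filaments of actin, tropomyosin, and troponin. Calcium binding to troponin moves tropomyosin and uncovers the myosin sites on actin. The M-band holds the thick filaments in register, the Z-disc anchors the thin filaments, and smooth muscle contracts with its own myosin genes. In the mammalian heart, atrial and ventricular muscle use different myosin light chains.

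Heart, liver, spleen, lung, and kidney were collected from each of 5 giant pandas soon after death, and each sample gave 1 library (25 libraries). Panda 1 was a female of age 27 with ovarian cancer and panda 2 a female of age 9 with another cause of death, called older here. Pandas 3 and 4 were females and panda 5 a male of age 0.5 that died of coronavirus infection, called young here. No treatment and no genotype are given in the labels. The age groups also differ in the cause and the year of death, and these cannot be told apart. Each tissue was sampled as a piece of the organ, so fewer cells of a type and less RNA per cell cannot be told apart either. Levels are FPKM, the reads on a gene divided by its length and by the size of its library, which allows genes to be set side by side in a library.

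Between 13149581 and 21383381 reads per library were counted on genes (median 16215830). At this depth 3 reads, the most that a count of 0 allows, were worth 0.140 to 0.228 FPKM for a gene of 1 kilobase, for counting error only. Markers of cardiomyocytes (9 genes), hepatocytes (8), kidney tubule (7), and B cells (7) all had their highest mean in the heart, liver, kidney, and spleen, respectively, and the lung was not checked in this way. The liver library of panda 3 stood apart, with 8725 genes above 1 FPKM against 12092 to 12534 in the other livers. The kidney library of panda 4 stood apart too, with a summed level of the tubule markers of 120 FPKM against 1006 to 2355 FPKM in the other kidneys. The tissue differences that were called with these libraries in the fit were refitted without them.

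All 46 members had a mean of more than 1 FPKM in some tissue, 17 of them in all 5 tissues and 9 in the heart alone. The highest mean was in the heart for 37 members, in the lung for 3, and in the liver, spleen, and kidney for 2 each. In 35 members every heart library lay above all 20 other libraries, which held for 3.41% of the 18701 genes expressed in a tissue. A single member, TRIM6, had every heart library below all others (3.86% of these genes), and the other 10 overlapped. Since the members were chosen for such differences, these counts describe the choice. Together the members made up 4.85% to 7.28% of the summed FPKM of a heart library (median 6.46%). Their part was 0.123% to 0.252% in a lung, 0.142% to 0.196% in a spleen, 0.0527% to 0.153% in a kidney, and 0.0334% to 0.0622% in a liver library. Among the members above all other libraries in the heart, the mean level in the heart ran from 19.5 to 13343 FPKM (median 408), and the smallest log2 difference of the heart from another tissue ran from 1.08 to 10.73 (median 5.29).

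**Figure D1:**
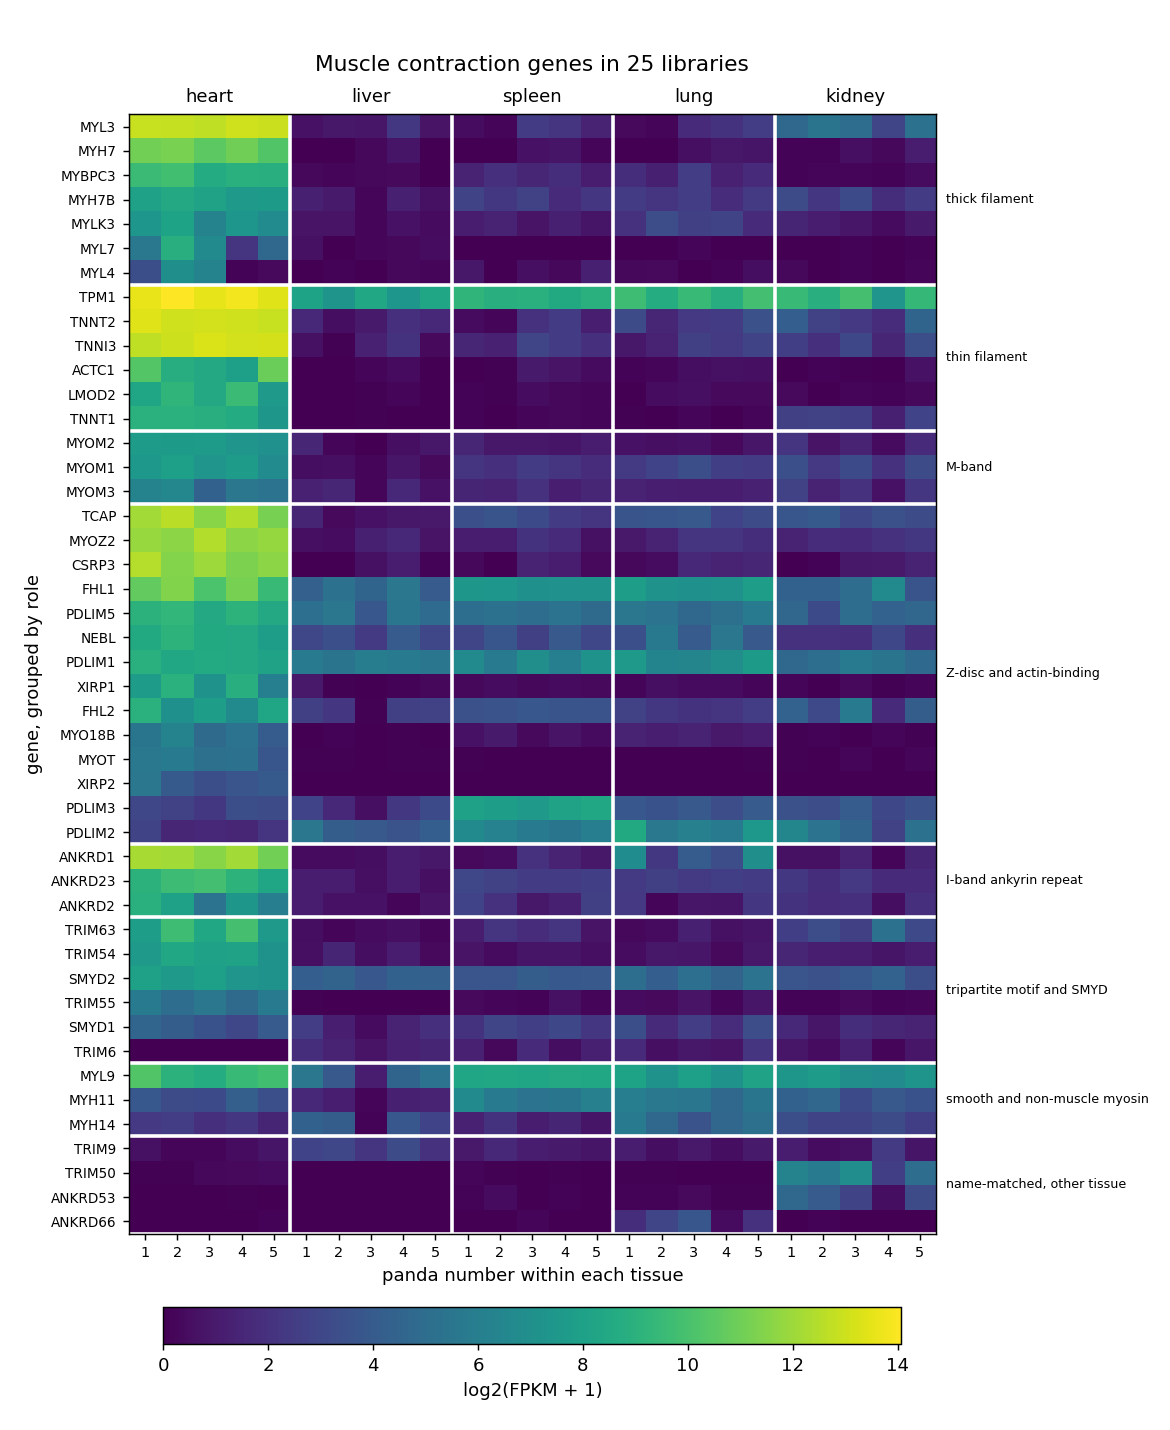
Level of each of the 46 genes (rows, grouped by role) in each of the 25 libraries (columns, 5 pandas per tissue) as log2(FPKM + 1), with brighter colours for higher levels. Most rows are brightest in the 5 heart columns, whereas PDLIM3 is brightest in the spleen, TRIM50 and ANKRD53 in the kidney, ANKRD66 in the lung, and TRIM9 in the liver.

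Genes of the thin filament held the largest part of the members' signal in the heart, 46.3% to 54.2% of their summed FPKM. Tropomyosin TPM1, which lies along actin and blocks or frees the myosin sites, was at 12658, 17188, 11839, 14257, and 10773 FPKM in the hearts of pandas 1 to 5 (13343 ± 2498, SD, n = 5). It was also present in every other library, at 156 to 951 FPKM, and by its mean FPKM was the most abundant member in each of the 5 tissues. This rests on a length of 614 bases for TPM1, which is no multiple of 3. In reads, MYH7, with a length of 5870 bases, was above TPM1 in every heart. Troponin T TNNT2, which ties troponin to tropomyosin, was at 10685, 8597, 8698, 8432, and 7711 FPKM in the hearts (8825 ± 1109). Troponin I TNNI3, the inhibitory subunit, was at 6783, 8105, 9717, 8972, and 9260 FPKM in the hearts (8568 ± 1158). In the other 20 libraries TNNT2 stayed between 0.167 and 22.3 FPKM and TNNI3 between 0.0764 and 9.24 FPKM, so neither overlapped the heart. The slow skeletal troponin T TNNT1, whose gene lies next to TNNI3 with no coding gene between them in the RefSeq annotation of ASM200744v3, was at 408 ± 139 FPKM in the heart. It made up 4.36% ± 1.28 (SD, n = 5) of the summed FPKM of TNNT1 and TNNT2 in the heart and had 4.79 ± 1.97 FPKM in the kidney, its other listed tissue.

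The cardiac actin ACTC1 varied more than the other thin filament genes, at 1264, 435, 360, 244, and 1922 FPKM in the hearts of pandas 1 to 5 (845 ± 724). The hearts of panda 1 (older) and panda 5 (young) were the high ones. Actin genes are nearly identical to each other in their coding sequence, so reads could be lost or split between them in counting, and the level of ACTC1 is uncertain. LMOD2, a leiomodin that sets thin filament length, had 443 ± 229 FPKM in the heart and at most 0.490 FPKM elsewhere.

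Among the thick filament genes the essential light chain MYL3 was the most abundant and the most even, at 7524, 7308, 6836, 8506, and 7984 FPKM in the hearts (7632 ± 640). In the kidney, its other listed tissue, it was at 25, 41.5, 31.6, 6.75, and 36.6 FPKM, with the kidney of panda 4 lowest. Its highest heart was 1.24 times its lowest, the smallest spread of the 35 members above all other libraries in the heart. The slow and cardiac heavy chain MYH7 had 2120, 2387, 1492, 2073, and 1225 FPKM (1859 ± 482), and the cardiac myosin-binding protein MYBPC3, which braces the thick filament, had 760, 880, 408, 491, and 464 FPKM (601 ± 207). The heavy chain MYH7B made up 12.5% ± 2.78 (SD, n = 5) of the summed FPKM of MYH7 and MYH7B. Heavy chains share long coding stretches, so some reads could be split among MYH genes. MYLK3, the kinase that phosphorylates the cardiac regulatory light chain, had 160 ± 77.4 FPKM in the heart.

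The light chains MYL4 and MYL7, which are typical of atrial muscle, differed between hearts far more than any other member with a mean above 1 FPKM there. MYL7 was at 47.9, 454, 104, 3.52, and 25.7 FPKM in the hearts of pandas 1 to 5, a 129-fold range. MYL4 was at 9.57, 126, 77.6, 0.103, and 0.291 FPKM, and its lowest hearts rested on 1 read (panda 4) and 3 reads (panda 5), so the size of its range is uncertain. The order of the hearts was the same for both genes, with panda 2 highest, followed by pandas 3, 1, 5, and 4, where that of pandas 5 and 4 for MYL4 is within counting error. The hearts of pandas 4 and 5 overlapped the other tissues for MYL4, which reached 1.38 FPKM in a spleen. MYL4 and MYL7 together made up 0.758%, 7.36%, 2.59%, 0.0425%, and 0.324% of the summed FPKM of MYL3, MYL4, and MYL7 in the 5 hearts (2.21% ± 3.04, SD). MYL3 did not follow them, since its lowest heart was that of panda 3 and its highest that of panda 4. The part of the heart that was sampled is not given in the labels, and its part in these values was not tested.

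**Figure D2:**
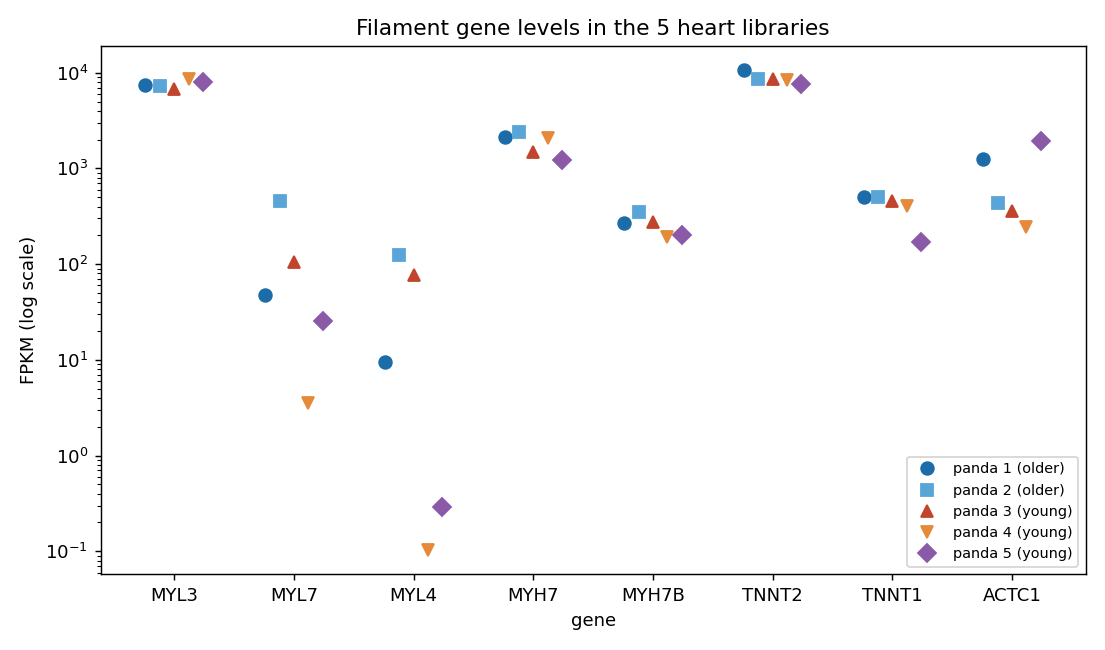
Level of 8 filament genes in the 5 heart libraries, in FPKM on a log scale, with 1 point per panda. MYL3 and TNNT2 lie within a narrow band, while MYL7 spans 3.52 to 454 FPKM and MYL4 spans 0.103 to 126 FPKM, with panda 2 highest and panda 4 lowest in both.

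At the M-band, MYOM1 (181 ± 49.5 FPKM) and MYOM2 (186 ± 36.7 FPKM) had like levels in the heart, and MYOM3 had 54.6 ± 28.3 FPKM. All 3 of these myomesins, which link neighbouring thick filaments, lay above every other library in the heart. At the Z-disc, the titin cap TCAP had 4325 ± 1651 FPKM, the calcineurin-binding myozenin MYOZ2 had 3876 ± 1018 FPKM, and the muscle LIM protein CSRP3 had 3712 ± 1371 FPKM in the heart. These 3 led the 14 Z-disc and actin-binding members, of which 12 lay above every other library in the heart. The spread within the group was wide, since XIRP2, which binds actin at cell junctions, had 9.58 to 46.0 FPKM in the heart while PDLIM2 and PDLIM3 were higher in other tissues. The ankyrin repeat proteins of the I-band, which bind titin and respond to stretch, were led by ANKRD1 with 4846, 4481, 2992, 4476, and 2186 FPKM in the hearts (3796 ± 1148). ANKRD23 had 616 ± 244 FPKM. ANKRD2 was less even, at 496, 262, 39.5, 175, and 64.2 FPKM, with both older hearts above the 3 young ones.

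Of the 6 tripartite motif and SMYD members, the muscle ubiquitin ligase TRIM63 was highest in the heart at 235, 828, 337, 969, and 187 FPKM (511 ± 361), followed by TRIM54 (241 ± 75.4 FPKM) and the methyltransferase SMYD2 (201 ± 48.9 FPKM). SMYD1, a methyltransferase needed for sarcomere assembly, was only at 14.6 ± 6.06 FPKM and its hearts (6.93 to 22.9 FPKM) overlapped a lung at 9.55 FPKM. TRIM6 had 0 FPKM in all 5 hearts, where a count of 0 allows up to 0.0817 FPKM in the shallowest of them, and 0.180 to 3.52 FPKM in the other 20 libraries. The study lists it for the heart, where its mean was the lowest of the 5 tissues. The members listed for the heart that stood nearest to another tissue were TRIM6 (log2 difference of the heart from the nearest tissue -0.73), MYL9 (1.08 above the spleen), SMYD1 (1.28 above the spleen), and PDLIM1 (1.53 above the lung). The next were PDLIM2 (-2.38) and SMYD2 (2.77).

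The hearts were not ordered alike over the members. Of the 35 members above all other libraries in the heart, 17 had their highest heart in panda 2 and 10 in panda 1, while 19 had their lowest heart in panda 5 and 8 in panda 3. Over the 638 genes with the same standing in the heart, 27.3% were highest in panda 2 and 30.9% in panda 1, and 29.8% were lowest in panda 5 and 16.3% in panda 3. The highest heart was less than 2 times the lowest in 12 of the 35 members, less than 3 times in 21, and more than 5 times in 5.

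A different set of members had its highest mean outside the heart. PDLIM3, a PDZ and LIM protein that binds the Z-disc protein alpha-actinin, was at 263, 234, 194, 277, and 350 FPKM in the spleens of pandas 1 to 5 and at 3.93 to 9.37 FPKM in the hearts. No library of another tissue came near the spleens, the highest of them being at 15.9 FPKM in a kidney. PDLIM3 was listed for the spleen, so its differences among the other 4 tissues could be tested. It was lower in the heart than in the lung (log2 difference -0.82, SE 0.24, adjusted p = 0.00796, limma), which missed the limit of 2 set on the log2 difference, and the differences of the heart from the liver (0.82, adjusted p = 0.177) and from the kidney (-0.57, adjusted p = 0.110) did not pass the test. Over all genes tested, the median log2 difference of the heart was -1.17 from the lung, 0.14 from the liver, and -0.76 from the kidney. With TMM factors these medians were -0.11, -0.11, and -0.07. The difference of PDLIM3 from the lung was smaller than the shift of all genes, so it is not read as a lower level relative to other genes.

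MYH11, the heavy chain of smooth muscle myosin, was listed for the liver, where it was at 1.91, 1.27, 0.127, 1.39, and 1.62 FPKM, below all other libraries. The spleens were at 101, 56.6, 39.4, 43.1, and 69.1 FPKM, and the hearts were at 13.6, 8.24, 7.92, 17.9, and 9.75 FPKM. The heart was lower than the spleen in 5 of 5 pandas (log2 difference -2.31, SE 0.29, adjusted p = 1.49e-05, limma), in a pair in which 23.3% of all genes were called. Genes were called here at a Benjamini-Hochberg adjusted p below 0.05 over all genes tested and a log2 difference of FPKM + 1 beyond 2 in either direction. The non-muscle heavy chain MYH14, listed for the spleen, where its mean was lowest, was at 52.3, 25, 11, 23.7, and 35.6 FPKM in the lungs against 4.06, 4.90, 2.77, 3.72, and 1.75 FPKM in the hearts. The heart was lower than the lung in 5 of 5 pandas (log2 difference -2.67, SE 0.36, adjusted p = 2.56e-05, limma), in a pair with 22.9% of all genes called. With quantile normalization, TMM factors, or size factors both differences shrank to between -0.99 and -1.48 and were no longer called. No member was called among the 2 tested between the heart and the liver (15.7% of all genes called) or the 4 tested between the heart and the kidney (15.3%), by limma or by limma-voom on recovered reads. Of these, MYH14 between the heart and the kidney (log2 difference -0.89, adjusted p = 0.0186, limma, lower in the heart in 5 of 5 pandas) was the 1 with an unadjusted p below 0.05, and it missed the limit of 2 alone. MYH14 between the heart and the liver was at -0.96 (adjusted p = 0.279), which rested on the liver of panda 3 at 0.117 FPKM against 6.21 to 19.6 FPKM in the other livers, and without that library it was at -1.69 (adjusted p = 0.00156, limma), again short of the limit. MYH11 between the heart and the lung (-1.89, adjusted p = 5.38e-05, lower in the heart in 5 of 5 pandas) and TRIM9 between the heart and the spleen (-0.62, adjusted p = 0.0102) passed the adjusted p and missed the limit too. The median over all genes tested was -1.17 for the heart against the lung, -1.16 against the spleen, and -0.76 against the kidney. With TMM factors it was -0.11, -0.12, and -0.07. The difference of TRIM9 was smaller than the shift of all genes, and that of MYH14 from the kidney was near it. TRIM9, at a mean of 0.391 FPKM in the heart, passed the filter through the spleen alone.

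PDLIM2, listed for the heart, had its lowest mean of the 5 tissues there, 3.06 ± 1.89 FPKM, and was highest in the lung at 379, 47.7, 67.7, 57.5, and 181 FPKM. The lungs of pandas 1 and 5 were the high ones, as for ANKRD1. The 2 members listed for the kidney alone were nearly absent elsewhere. TRIM50 was at 76.6, 55.0, 119, 5.01, and 31.4 FPKM in the kidneys and at most 0.308 FPKM in the other libraries. ANKRD53 was at 24.6, 15.2, 6.30, 0.459, and 8.35 FPKM in the kidneys and at most 0.323 FPKM elsewhere. The kidney of panda 4, whose tubule markers were low, was the lowest for both genes. The part of its low tubule markers in this was not tested. ANKRD66 was at 2.56, 6.81, 12.5, 0.341, and 3.04 FPKM in the lungs and at most 0.122 FPKM elsewhere. TRIM9 was at 6.22, 6.93, 3.34, 8.53, and 3.03 FPKM in the livers, and overlapped the kidney of panda 4 at 4.33 FPKM. These 4 genes share a family name with muscle genes and had 0.391 FPKM or less as their mean in the heart.

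**Figure D3:**
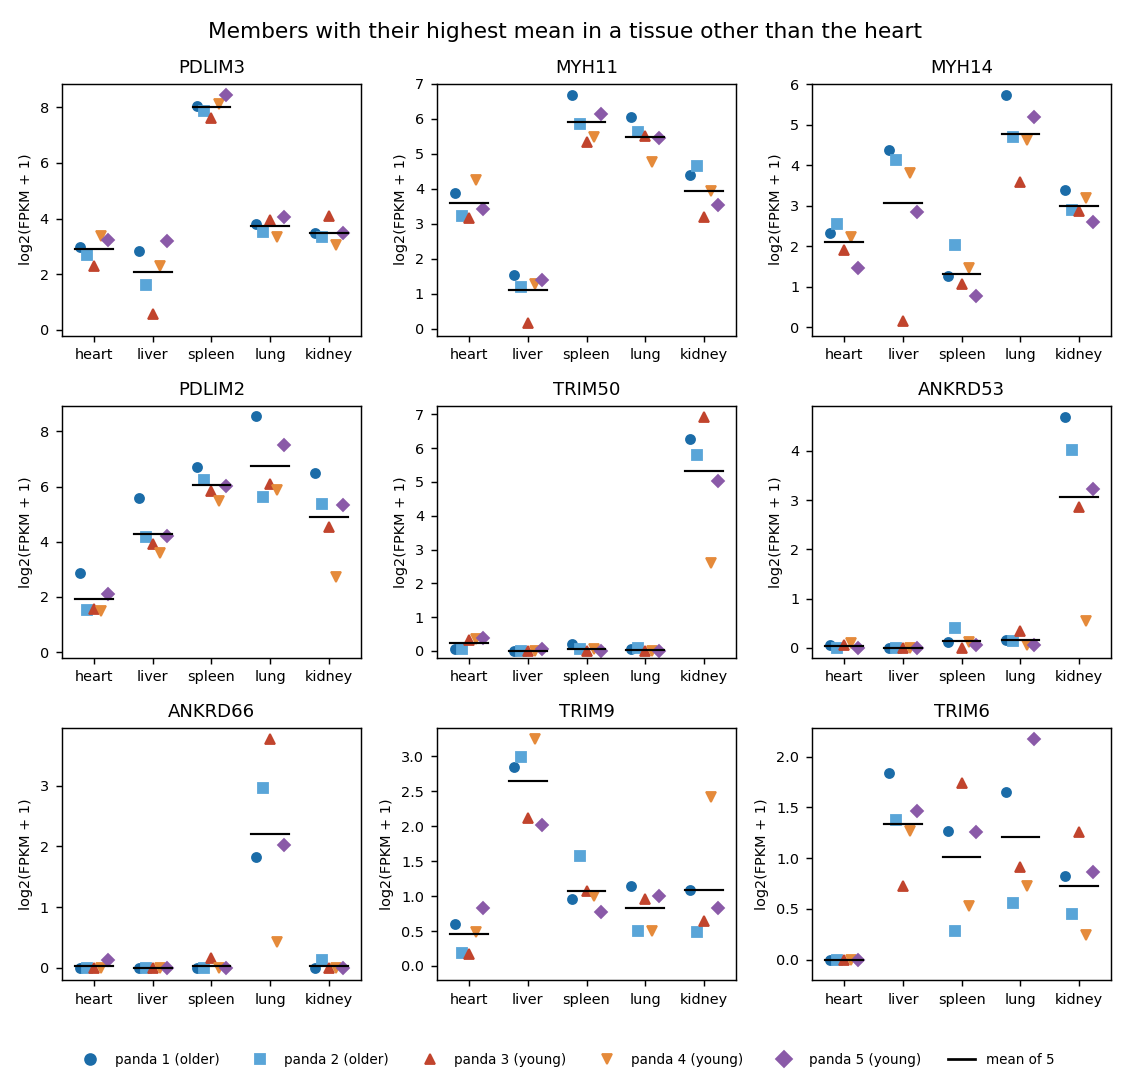
Level of the 9 members with their highest mean outside the heart, as log2(FPKM + 1) by tissue, with 1 point per panda and a bar at the mean of 5. All 5 spleens lie far above the other libraries for PDLIM3, and TRIM50, ANKRD53, and ANKRD66 are near 0 in all but 1 tissue.

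Whether the members differ among the liver, spleen, lung, and kidney was not part of how most of them were chosen, so these 6 pairs could be tested. A member listed for a tissue was left out of the pairs of that tissue. Between 40 and 43 members could be used in each pair, and 26 to 32 of them passed the filter of a mean above 1 FPKM in one of the tissues. In the pairs of the liver, 3 of 26 members were called against the spleen, 6 of 28 against the lung, and 4 of 26 against the kidney, all lower in the liver. Of all genes, 29.9%, 29.0%, and 14.0% were called in these pairs, respectively, and 25.9%, 25.7%, and 11.7% were called lower in the liver. Among the called members, TCAP, MYOM1, TRIM63, and ANKRD1 had means of 0.887, 0.422, 0.307, and 0.616 FPKM in the liver. They passed the filter through the other tissue alone, so they could be called only as lower in the liver. The median log2 difference of the members tested was -1.04, -1.34, and -0.83, beside -1.29, -1.28, and -0.89 for all genes tested. With TMM factors the medians of all genes were -0.05, -0.04, and 0.01.

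MYL9, the regulatory light chain of smooth and non-muscle myosin, was called lower in the liver than in each of the other 3 tissues. It was at 47.4, 14.3, 1.21, 21.8, and 39.7 FPKM in the livers, 320, 333, 313, 360, and 333 FPKM in the spleens, 290, 150, 241, 150, and 270 FPKM in the lungs, and 175, 215, 123, 109, and 157 FPKM in the kidneys. No liver overlapped a library of the other 3 tissues, and the liver of panda 3, which stood apart, was the lowest. The log2 difference of the liver was -4.27 from the spleen (SE 0.68, adjusted p = 0.000149, limma), -3.63 from the lung (SE 0.70, adjusted p = 0.000572), and -3.14 from the kidney (SE 0.68, adjusted p = 0.00291). Without the liver of panda 3 the differences were -3.53, -2.89, and -2.40, and all 3 were still called.

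FHL1, a LIM protein that binds titin and myosin-binding protein, was high in the spleen and lung as well as in the heart. It was at 171, 169, 133, 138, and 148 FPKM in the spleens, 239, 144, 135, 147, and 240 FPKM in the lungs, 19.2, 37.0, 22.2, 46.9, and 15.6 FPKM in the livers, and 19.3, 19.7, 31.7, 104, and 11.7 FPKM in the kidneys. Spleens and lungs overlapped each other and lay above all livers and kidneys. The liver was below the spleen (log2 difference -2.496, SE 0.31, adjusted p = 2.8e-05, limma) and below the lung (-2.71, SE 0.35, adjusted p = 3.33e-05). The spleen was above the kidney (log2 difference 2.42, SE 0.44, adjusted p = 0.000671, limma; 14.3% of all genes called) and so was the lung (2.63, SE 0.46, adjusted p = 0.000558; 12.2% of all genes called). Without the kidney of panda 4, the differences from the kidney were 2.89 and 3.11. With TMM factors the difference of the liver from the spleen was -0.87 (adjusted p = 0.0617), from the lung -1.05 (adjusted p = 0.0413), and that of the spleen from the kidney 1.93 (adjusted p = 0.0103), so that the call of the lung over the kidney was the one that stayed (limma).

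ANKRD1 was called higher in the lung than in each of the other 3 tissues. Its lung values of 115, 3.80, 16.1, 8.92, and 129 FPKM differed widely between pandas, with pandas 1 and 5 high, and all lay above the highest value elsewhere outside the heart, 3.07 FPKM in a spleen. The log2 difference of the liver from the lung was -4.05 (SE 0.81, adjusted p = 0.00074, limma), and that of the lung from the kidney was 3.85 (SE 0.80, adjusted p = 0.00175). That of the spleen from the lung was -3.68 (SE 0.83, adjusted p = 0.00536), and ANKRD1 was the only member called of 30 in this pair, in which 6.88% of all genes were called. These 3 calls held under all alternatives that were run. The mean of ANKRD1 was 0.616 FPKM in the liver and 0.909 FPKM in the kidney, so it passed the filter against these tissues through the lung alone.

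TRIM63 was at 5.19, 9.08, 5.37, 38.2, and 7.45 FPKM in the kidneys, above every liver (0.131 to 0.468 FPKM), spleen (0.696 to 3.51 FPKM), and lung (0.230 to 1.35 FPKM). The log2 difference from the kidney was -3.02 for the liver (SE 0.46, adjusted p = 0.000335, limma) and -2.71 for the lung (SE 0.46, adjusted p = 0.000424). Without the kidney of panda 4, which was the highest, these differences were -2.55 and -2.24, and both were still called. The mean of TRIM63 was 0.307 FPKM in the liver and 0.656 FPKM in the lung, so it passed the filter in these pairs through the kidney alone. With quantile normalization the difference of the liver from the kidney was -1.94, short of the limit of 2. TCAP was low in the liver (1.70, 0.295, 0.640, 0.872, and 0.928 FPKM) and between 3.31 and 14.6 FPKM in the spleens, lungs, and kidneys. The log2 difference of its level in the liver was -2.09 from the spleen (SE 0.33, adjusted p = 0.000145), -2.61 from the lung (SE 0.29, adjusted p = 1.24e-05), and -2.63 from the kidney (SE 0.33, adjusted p = 7.58e-05, limma). With quantile normalization, TMM factors, or size factors these 3 calls were lost, at -0.62 to -1.01 from the spleen (adjusted p = 0.0277 to 0.160), -1.04 to -1.46 from the lung, and -1.47 to -1.95 from the kidney.

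MYOM1 had 0.136 to 0.781 FPKM in the liver, and was lower there than in the lung (log2 difference -2.25, SE 0.24, adjusted p = 9.14e-06, limma) and the kidney (-2.34, SE 0.34, adjusted p = 0.000221). With the same 3 scalings these were at -0.87 to -1.36 and -1.30 to -1.86, and neither was called. PDLIM2 was lower in the liver than in the lung (log2 difference -2.44, SE 0.57, adjusted p = 0.00221), although its livers, at 11.1 to 46.6 FPKM, reached nearly to the lowest lung at 47.7 FPKM. With the 3 scalings it was at -0.76 to -1.57 (adjusted p = 0.0519 to 0.292, limma) and was not called. NEBL, a nebulin-related Z-disc protein, was at 9.69, 50.6, 15.4, 46.6, and 14.3 FPKM in the lungs and 3.0, 2.99, 2.82, 7.36, and 2.72 FPKM in the kidneys, and the lung was above the kidney (log2 difference 2.35, SE 0.45, adjusted p = 0.00111). Without the kidney of panda 4 this was 2.57, and with the 3 scalings it was 1.81 to 1.91 and not called. In all, 21 of 181 tests of a member in a pair not used to choose it were called, beside 6.88% to 29.9% of all genes in the single pairs. Each called difference had the same direction in 5 of 5 pandas. The calls of TCAP, MYOM1, and TRIM63, and those of ANKRD1 against the liver and kidney, passed the filter through the higher tissue alone. Their direction was thus fixed by the filter. All 13 calls in pairs of the liver held without the liver of panda 3, and all 9 in pairs of the kidney held without the kidney of panda 4. Without that kidney 4 further differences were called, those of FHL2 (-2.30 for the liver and -2.02 for the lung from the kidney) and TNNT2 (-2.12 for the liver and -2.19 for the spleen from the kidney). The pairs share libraries, so the calls of a gene in several pairs are not independent of each other. Of the 21 calls, 8 held under all alternatives that were run, and those of ANKRD1, MYL9, FHL1 between the lung and kidney, and TRIM63 between the lung and kidney made them up. With quantile normalization the split between the liver and kidney was 1 higher and 1 lower in place of 4 lower, while 1 member was then higher in the spleen than in the kidney and 2 were lower, in place of 1 higher. Without panda 4, 8 members were called between the liver and the kidney in place of 4 and 3 between the spleen and the kidney in place of 1, and without panda 3 or panda 2 the spleen and kidney gave 3 or 2. The shares of all genes called under these other settings are not given here, so their counts are not read as results about the members.

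**Figure D4:**
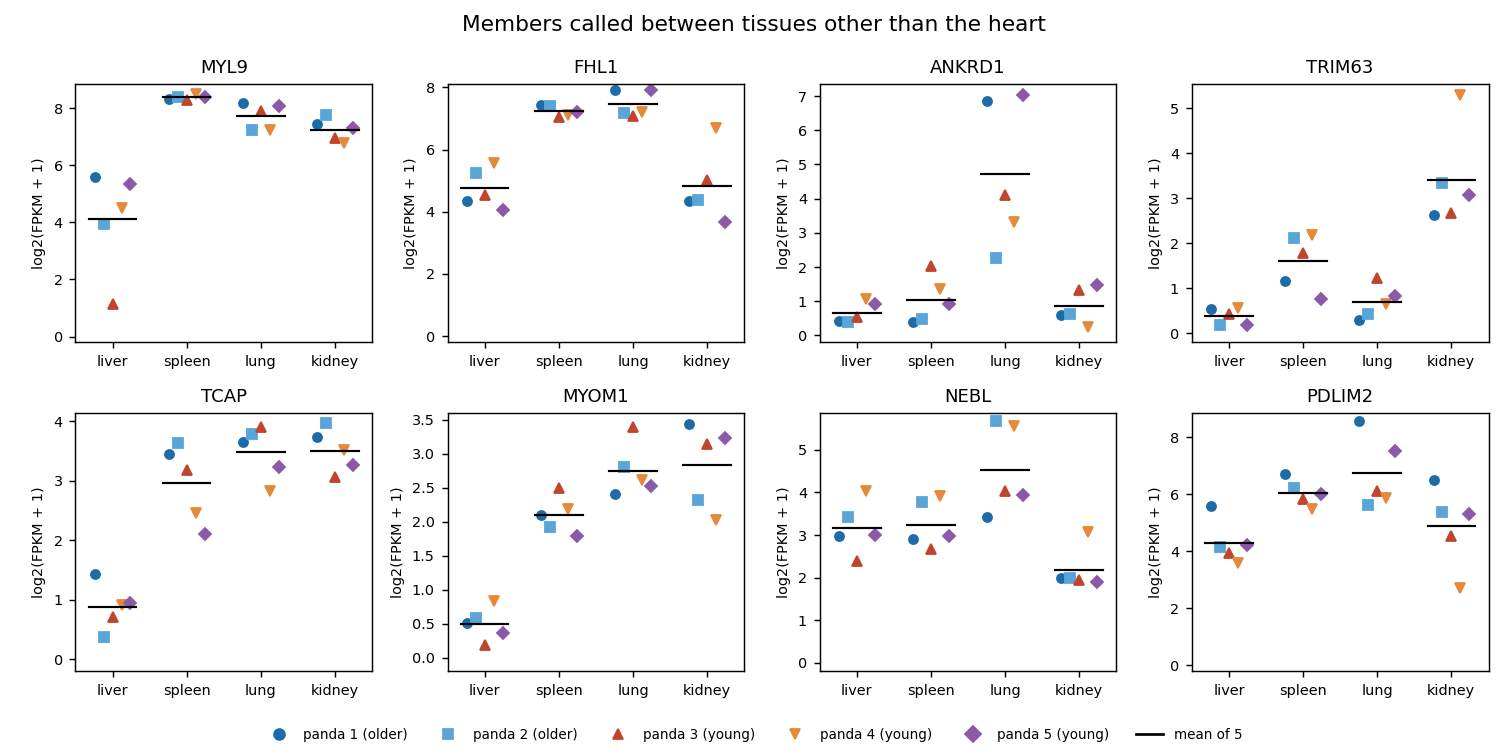
Level of the 8 members called between tissues other than the heart, as log2(FPKM + 1), with 1 point per panda and a bar at the mean of 5. The livers lie lowest for MYL9, TCAP, and MYOM1, the lungs highest for ANKRD1, and the kidneys highest for TRIM63, with panda 4 the top kidney.

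Other genes of contraction that are no members were counted in the same pairs, from lists of which fewer than 80% of the genes had an identifier. Their identifiers came from the study's list of genes that differ between tissues, so they are no independent evidence of a direction, and each was left out of the pairs of its listed tissues. Of 25 further sarcomere genes, 19 had an identifier. CRYAB, DES, FLNC, and NEXN were called lower in the liver than in the spleen (4 of 11 tested, 29.9% of all genes called) and than in the lung (4 of 12, 29.0% of all genes), and CRYAB lower than in the kidney (1 of 13, 14.0% of all genes). DES and NEXN were called higher in the spleen than in the kidney (2 of 13, 14.3% of all genes) and DES higher in the lung than in the kidney (1 of 15, 12.2% of all genes), and none of 12 differed by these thresholds between the spleen and the lung, where 4 had an unadjusted p below 0.05 and 0 were called by limma-voom. Of 16 genes of excitation-contraction coupling, 11 had an identifier, and PLN was called lower in the liver than in the lung (1 of 6 tested) and kidney (1 of 5) and CACNB2 higher in the spleen than in the kidney (1 of 4). With so few genes, these counts are not read against those of all genes.

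Many of the members most abundant in the heart were found at very low levels in the other tissues. The 10 members with a mean above 1000 FPKM in the heart were TPM1, TNNT2, TNNI3, MYL3, TCAP, MYOZ2, ANKRD1, CSRP3, MYH7, and FHL1. TPM1 and FHL1 were at 0.736% or more of the level in the heart of the same panda in every other library. MYH7 was at 0%, 0.000353%, 0.0141%, 0.0346%, and 0.00065% of the heart in the livers of pandas 1 to 5, which rested on 0, 1, 23, 67, and 1 reads. In the lungs it rested on 2, 1, 38, 72, and 70 reads, in the spleens on 1, 2, 48, 66, and 13, and in the kidneys on 7, 10, 45, 24, and 107. The young pandas thus lay above the older ones in the spleen, lung, and kidney for MYH7. In the liver pandas 2 and 5 had 1 read each. By FPKM, 6 of the 10 members had every young spleen above both older ones, whereas FHL1 and TCAP had them below. For the lungs 5 were above and 0 below. Only MYH7 and CSRP3 were above for the kidneys, with TCAP below, and 3 were above for the livers with 0 below. Of all genes, 11.6%, 7.94%, and 7.73% had the young above in spleen, lung, and kidney, respectively. MYH7 had a mean below 1 FPKM there, so it is not read against these shares.

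**Figure D5:**
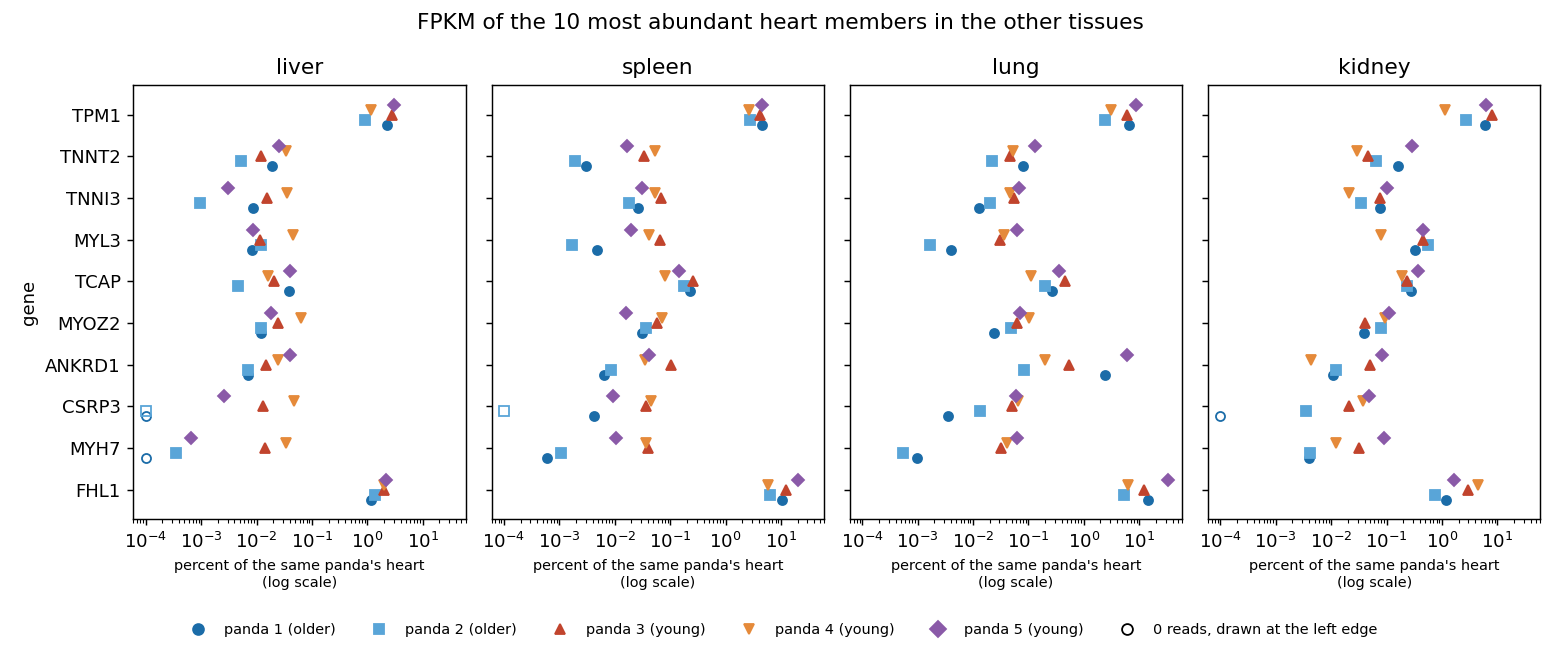
FPKM of the 10 most abundant members of the heart in the liver, spleen, lung, and kidney, as a percent of the heart library of the same panda on a log scale, with 1 point per panda. TPM1 and FHL1 lie near or above 1 percent. For MYH7 and CSRP3, and no other gene shown, the older pandas (blue) lie below the young ones in the spleen, lung, and kidney.

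Young and older pandas were compared within each tissue, with 3 libraries against 2. No member was called in any tissue at an adjusted p below 0.05 (limma), and 0 of all genes were called, by limma on FPKM or by limma-voom on recovered reads. In the heart, 4 of 41 members tested had an unadjusted p below 0.05, beside 4.44% of all genes, and all 4 were lower in the young. These were ANKRD2 (log2 difference -2.22, SE 0.61), MYBPC3 (-0.85, SE 0.24), MYOM3 (-1.29, SE 0.42), and the unconventional myosin MYO18B (-1.11, SE 0.45), each with an adjusted p of 0.999. In 11 of 41 members tested every young heart lay below both older ones (11.5% of all genes), and in 1 of 41, TNNI3, every young heart lay above them (6.89%). The median log2 difference of the members in the heart was -0.46, beside -0.02 over all genes tested.

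In the spleen, 6 of 30 members tested had an unadjusted p below 0.05, beside 10.5% of all genes. TNNI3, TNNT2, MYL3, and ANKRD1 were higher in the young and PDLIM2 and TCAP lower, with the smallest adjusted p at 0.262 for MYL3. MYL3, TNNT2, and ANKRD1 had means of 0.240, 0.248, and 0.346 FPKM in the older spleens and passed the filter through the young alone. Their direction was thus fixed by the filter, and the count of 6 is not read as a result about the members. MYL3 was at 0.358 and 0.122 FPKM in the spleens of the older pandas and at 4.57, 3.46, and 1.60 FPKM in those of the young. In the lung, 4 of 30 members had an unadjusted p below 0.05, beside 1.14% of all genes, and TNNI3, MYL3, MYOZ2, and CSRP3 were all higher in the young, with adjusted p of 0.9997. MYL3 and CSRP3 had means below 1 FPKM in the older lungs and passed the filter through the young alone. These genes could thus only come out higher in the young, so the count of 4 is not read as a result about the members. MYL3 was at 0.302 and 0.124 FPKM in the older lungs and at 2.14, 3.13, and 4.96 FPKM in the young ones. In the kidney, 2 of 33 had an unadjusted p below 0.05 (2.97% of all genes), with ANKRD53 lower and CSRP3 higher in the young, and in the liver 0 of 24 (0.776%). CSRP3, at a mean of 0.0493 FPKM in the older kidneys, passed the filter through the young alone.

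The markers of cardiomyocytes, 9 genes of which TNNI3, TNNT2, MYL3, MYH7, and ACTC1 are also members, lay apart by age in the same tissues, so their sum is not independent of these values. Their summed level was 27.7 to 28.4 FPKM in the older lungs and 46.8 to 90.1 FPKM in the young ones, 102 to 126 against 151 to 232 FPKM in the spleen, and 3.21 to 3.53 against 4.76 to 24.1 FPKM in the liver. In the kidney it was 62.0 to 63.2 against 63.9 to 108 FPKM, and no marker was at 0 in all libraries of a group except ACTC1 in the older livers. The 4 markers that are no members (MYL2, RYR2, PLN, and MB) summed to 17.8 to 24.6 FPKM in the older lungs and 33.6 to 77.7 FPKM in the young ones, and to at most 124 FPKM in the older spleens against 135 to 225 FPKM in the young ones. The markers of B cells lay apart by age in the lung too, at 22.8 to 25.9 FPKM in the older and 26.1 to 95.4 FPKM in the young, and overlapped in the other tissues. The part of heart RNA and of B cells in other libraries, as of age, infection, and year of death, in these low values was not tested.

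Whether the difference of young from older pandas was another in the heart than in each other tissue was tested with all 25 libraries, with panda as a block. No member and no other gene was called in any of the 4 contrasts (limma). An unadjusted p below 0.05 was found for 0.834% of all genes against the liver, 0.791% against the spleen, 0.69% against the lung, and 1.23% against the kidney. Members at nearly 0 FPKM outside the heart entered this fit by their level in the heart, so no count of members is given. The contrast of some restates the age difference within the heart, as for MYL7 against the spleen (-2.68 in both). That of others does not, since CSRP3 was at -0.36 within the heart and at -0.99 to -1.50 in the contrasts. All these contrasts share the heart libraries.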

How the data were processed

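The authors made libraries from total RNA with the NEBNext Ultra RNA kit, sequenced them on an Illumina HiSeq, mapped the reads with HISAT2 to the ailMel1 assembly of the giant panda genome, assembled further genes with Cufflinks, and counted with HTSeq (union mode). From these counts and gene lengths the authors derived FPKM, which the deposited file holds for every gene and library, with no further normalization stated. The counting was not stated to use strand. Most gene lengths behind the values were multiples of 3 (87.4% of Ensembl genes, 38 of the 46 members), so most are taken as coding lengths.

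Members were found by gene identifier from the names in the study's supplementary list, and 44 of 46 symbols also stand in the RefSeq annotation ASM200744v3, which was used for names and neighbours only. Whole reads were recovered from the steps of the low FPKM values for 24205 of 24207 genes above 0, at a tolerance of 0.05 reads. Limits derived from read numbers account for counting error alone. Groups came from the tissue labels. Libraries of the same number share age, sex, and date of death in the labels and so came from the same panda. After the tissue means were removed, they correlated at 0.0600 to 0.521 (median 0.367) across genes, with 49 of 50 pairs above 0.1, and libraries of different pandas at -0.469 to 0.377 (median -0.122).

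Tissue pairs were tested by limma (version 3.58.1 in R 4.3.3) on log2(FPKM + 1), with a variance trend, a scale that understates changes near 0 FPKM. Each fit took all genes with a mean above 1 FPKM in one of the groups, with calls as given in the text, in place of the authors' DESeq on counts. Young and older pandas were compared within each tissue in the same way at an adjusted p below 0.05, and their difference between tissues with panda as a block. The fits were tested on simulated data. Other settings tried were TMM factors, quantile normalization, a pseudocount of 0.1, no filter and a filter at 5 FPKM, all libraries in one fit, the panda block, limma-voom on recovered reads, and each panda left out. Median-of-ratios size factors and the removal of the kidney of panda 4 or the liver of panda 3 alone were chosen after seeing the data. Python 3.11.15 with pandas 2.3.3 and matplotlib 3.10.9 was used for the other steps.

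The members, gene lists, tests, and named genes were chosen with earlier results of these data known. Named are the 3 members highest in the heart in each role group, members listed for or highest in another tissue, called members, up to 3 members with the largest difference by age in a tissue, and the light chains, with further members named after their values were seen. Marker lists were used where at least 80% of their genes had an identifier, and those of lung epithelium, smooth muscle, atrial muscle, skeletal muscle, endothelium, fibroblasts, and adipocytes were not. Lists of smooth muscle contraction and non-muscle actomyosin had no identifier and were not analysed here.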

Additional observations from a re-analysis of the deposited data

Results flagged for a closer look

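In 10 of 151 groups of 5 libraries with a mean above 1 FPKM, the highest or lowest library of a member lay apart from the other 4, with a gap over the range above Dixon's critical value of 0.71. Chance gives about 1 in 20. The kidney of panda 4 accounted for 6 of the 10. It was high for FHL1 (104 FPKM), TRIM63 (38.2 FPKM), NEBL (7.36 FPKM), and TRIM9 (4.33 FPKM), and low for TNNT1 (1.36 FPKM) and ANKRD2 (0.453 FPKM). The other 4 were MYL7 in the heart of panda 2 (454 FPKM), XIRP2 in the heart of panda 1 (46.0 FPKM), MYL3 in the liver of panda 4 (3.80 FPKM), and PDLIM2 in the liver of panda 1 (46.6 FPKM).

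For 4 members every young library lay on one side of the older ones in the heart and on the opposite side in another tissue. Over all 18701 expressed genes the share with such a pattern was 0.722%. MYH7 and TNNT1 had means below 1 FPKM in those other tissues, and TRIM50 rested on 0 to 8 reads in each heart, spleen, and lung library. ANKRD1 rested on few reads too, with 6 and 6 in the older livers against 8, 17, and 18 in the young ones. In the spleens it had 4 and 5 reads in the older pandas against 40, 23, and 15 in the young. The young mean of MYH7 was 1596 FPKM in the heart, below the older hearts, and 0.491, 0.688, and 0.604 FPKM in the spleen, lung, and kidney, above the older libraries. The difference between tissues, tested in the fit of all libraries, was -1.05, -1.25, and -1.05 on the log2 scale for the heart against the spleen, lung, and kidney (adjusted p = 1.0 in each, limma). The young mean of TNNT1 was 343 FPKM in the heart, below the older ones, and 0.200 FPKM in the spleen, above them, with a difference of -0.88 between the tissues (adjusted p = 1.0, limma). That of ANKRD1 was 3218 FPKM in the heart, below, and 0.812 and 1.85 FPKM in the liver and spleen, above, with differences of -1.03 and -1.61 (adjusted p = 1.0, limma). That of TRIM50 was 0.281 FPKM in the heart, above, and 0.0151 and 0 FPKM in the spleen and lung, below, with differences of 0.41 and 0.36 (adjusted p = 1.0, limma).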

How the results depend on the processing

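Of 218 counts and descriptions recomputed under alternatives, 187 stayed within 1.5 times the main value or moved by less than the spread, 31 moved, and none of the 21 called differences changed its direction. For TCAP, MYOM1, and TRIM63, and for ANKRD1 against the liver and kidney, the filter of the main fit had fixed the direction. Calls of members fell from 21 to 13 with quantile normalization, to 10 with TMM factors, and to 11 with size factors (chosen after seeing the data), and rose to 46 with a pseudocount of 0.1 and to 48 with limma-voom on recovered reads. Between the liver and spleen these settings gave 1, 1, 1, 11, and 11 in place of 3, and between the liver and lung 3, 2, 2, 12, and 14 in place of 6. Between the liver and kidney they were 2 with quantile normalization and with TMM factors and 7 with the pseudocount and with limma-voom, in place of 4. The pseudocount and limma-voom gave 2 in place of 1 between the spleen and lung, 5 in place of 1 between the spleen and kidney, and 7 in place of 4 between the lung and kidney. Quantile normalization gave 3 between the spleen and kidney, and leaving out the kidney of panda 4 gave 2. Leaving out each panda gave 4 to 8 calls between the liver and kidney (8 without panda 4) and 1 to 3 between the spleen and kidney (3 without panda 3 or panda 4, 2 without panda 2). The call of TCAP between the liver and spleen was lost without panda 2 (-1.80) and without panda 3 (-1.996). The share of all genes called under each of these settings is not given here, so these counts describe the members alone. Causes were not tested.

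With the panda as a block the members called in the 6 pairs without the heart numbered 3, 6, 4, 1, 1, and 4, as without it, and 21 in all, so the pairing ended no count. The differences by age between tissues gave 0 calls with and without the block. Comparisons of young with older pandas rest on 3 and 2 animals, and a level resting on a few reads is uncertain by its count alone.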
